A study of Mus musculus with 7 samples.

Results

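The barcodes described here carried almost no transcripts of 4 cell-cycle genes, and not all of them had the markers of DN4 gd- thymocytes. They came from the library that the submitters named WT DN4 gd-. DN4 cells are CD4- CD8- double-negative (DN) thymocytes that have passed beta-selection and no longer display CD25. A barcode, the tag of 1 droplet, was kept when it had at least 1000 detected genes, at most 10% of its unique molecular identifiers (UMIs, counted RNA molecules) from mitochondrial genes, and at most 1 UMI of the B cell genes Cd79a, Cd79b and Ms4a1 together. Kept barcodes with at most 1 UMI in all of Mki67, Top2a, Rrm2 and Tyms are called members below. They numbered 583 of 11986 kept barcodes, or 4.86% (exact Clopper-Pearson 95% interval, 4.49 to 5.26), out of 15916 deposited barcodes of this library. The whole series held 66446 kept of 90016 deposited barcodes in 7 libraries. The comparison set, called cycling barcodes, was the 10682 kept barcodes of the same library with at least 4 UMIs of the 4 genes. The 721 barcodes with 2 or 3 UMIs belonged to neither set.

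The study followed thymocytes through the point at which the alpha-beta and gamma-delta T cell lineages part, in wild-type mice and in mice without the adaptor LAT. Thymi of wild-type C57BL/6 mice aged 6 to 8 weeks were pooled and depleted of CD4- and CD8-bearing cells with beads. The remaining cells were sorted by surface CD25, CD71 and TCR delta, with NK1.1-bearing cells stained for exclusion. The paper describes its DN4 gd- cells as CD71-positive and links CD71 transcripts to proliferation. The share of non-cycling barcodes therefore cannot be told apart from that gate. WT DN3a, WT DN3b gd-, WT DN4 gd-, WT DN3b gd+ and WT DN4 gd+ each gave 1 library, into which 500 sorted splenic B cells were mixed before droplet capture with 10x 3' v3 chemistry. The other 2 libraries, Lat-/- DN3 gd- and Lat-/- DN3 gdint, came from LAT-deficient mice that also carried a Trdc-H2BEGFP reporter. Each group was thus 1 library from pooled animals, with no replicate. Intervals cover counting error only, and no difference between groups or libraries could be tested.

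Beta-selection is the checkpoint at which a thymocyte with a productive TCR beta chain signals through the pre-TCR, a pair of TCR beta and the surrogate chain encoded by Ptcra. The signal ends recombination at the Trb locus, lowers CD25 and starts rapid division, after which cells gain CD8 and CD4, leave the cycle, reopen recombination and rearrange the Tra locus. Mki67 encodes the Ki-67 protein of dividing cells, Top2a a DNA topoisomerase used in mitosis, Rrm2 a subunit of ribonucleotide reductase, and Tyms thymidylate synthase. In mm10 these genes lie on chromosome 7 at 135689784 to 135716361, chromosome 11 at 98992943 to 99024189, chromosome 12 at 24708241 to 24714146 and chromosome 5 at 30058202 to 30073617.

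Total depth moved with the rule. Members held 2089 to 18985 UMIs, with a median of 6523, whereas cycling barcodes had a median of 20153.5. The median mitochondrial share was 4.17% in members and 3.39% in cycling barcodes. Of the members, 210 had no UMI of the 4 genes, with a median depth of 5821.5 UMIs, and 373 had exactly 1, with a median of 6794. Just outside the threshold, 383 barcodes with 2 UMIs had a median of 7859 and 338 barcodes with 3 UMIs a median of 11289.5. The rule therefore selected shallow barcodes as well as low levels of the 4 genes. Chosen after every barcode had been thinned to 3000 UMIs, the share with none of the 4 genes was 11.2%. The sum of the mitosis and spindle genes, in CPM (UMI counts scaled to the same total in every set), was 1078 at 0 UMIs, 1167 at 1, 1442 at 2, 1686 at 3 and 5403 at 20 or more.

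**Figure D1:**
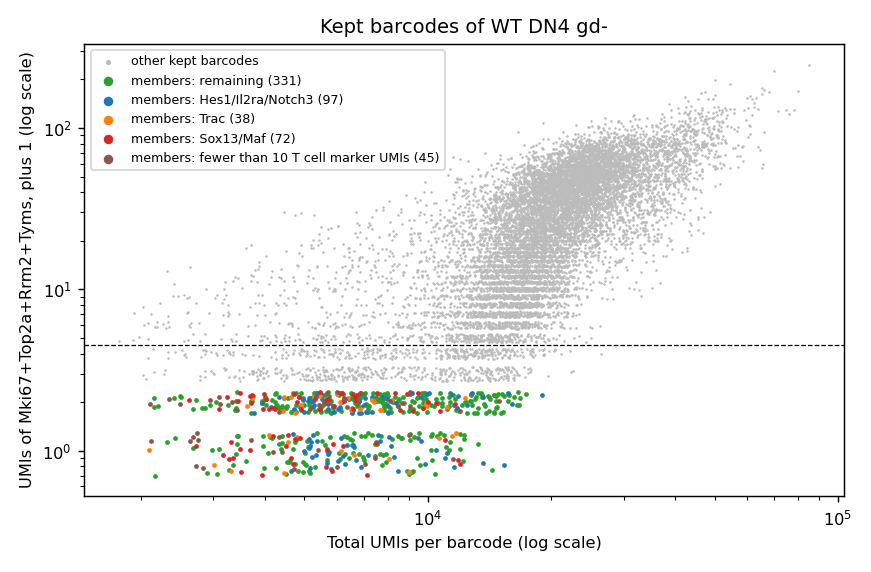
Total UMIs per kept barcode of WT DN4 gd- (x axis, log scale) against the UMIs of Mki67, Top2a, Rrm2 and Tyms plus 1 (y axis, log scale, points jittered). Coloured points are the members by group, gray points the other kept barcodes, and cycling barcodes lie above the dashed line. Members reach no further right than 18985 UMIs, while the cycling barcodes have a median of 20153.5.

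The label of non-cycling DN4 gd- cells fitted these barcodes in part. Against the 99 B-like barcodes of the same library, whose UMIs of Cd79a, Cd79b and Ms4a1 were at least 10 and at least 2 times those of the T cell markers, the members had no more mitotic RNA: 1138 CPM against 1328, with 4523 in cycling barcodes. DNA replication genes summed to 2510 CPM in members, 1851 in B-like and 5816 in cycling barcodes. Members were chosen on low counts of 4 cell-cycle genes and B-like barcodes were not, since 53.5% of them had 0 or 1 such UMI. These sums therefore do not test the label. The T cell markers (Cd3d, Cd3e, Cd3g, Cd247, Lck, Thy1, Cd2, Tcf7, Bcl11b and Trbc1) summed to a median of 44 UMIs per member. However, 45 members held fewer than 10 such UMIs, and 72 others carried at least 2 UMIs of Sox13 and Maf together (Sox13 in 54, Maf in 57), transcription factor genes known from gamma-delta T cells. In this library 307 deposited barcodes (1.93%) also occurred in another library, including 17 members (2.92%) and 185 cycling barcodes (1.73%). Totals per library ran from 49407750 to 375688164 UMIs, with 263137408 in WT DN4 gd-.

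Members fell into 5 groups that were set after their values had been seen, so the groups are ranges of a count rather than cell types, and the genes that set a group are no finding about it. The first group, called T-poor below, comprised the 45 members (7.72%) with fewer than 10 T cell marker UMIs. Of the remainder, 72 (12.3%) had at least 2 UMIs of Sox13 and Maf together, the next 38 (6.52%) had at least 2 UMIs of Trac, the TCR alpha constant gene, and the next 97 (16.6%) had at least 3 UMIs of Hes1, Il2ra and Notch3, genes of the Notch-dependent DN3 stage. The last 331 (56.8%) met none of these limits. Among the 97, Hes1 had a UMI in 88 with a median of 4, so it met the limit most often. Il2ra had a UMI in 42 and Notch3 in 41, each with a median of 0. Many members stood near a limit, with 36 at 1 UMI and 17 at 2 UMIs of Sox13 and Maf, 37 and 10 for Trac, and 42 at 2 and 22 at 3 UMIs of the Notch-stage genes. Only 4 members met both the Sox13 and Maf limit and the Trac limit, 6 the first of these and the Notch-stage limit, and 1 the Trac and Notch-stage limits. After thinning to 3000 UMIs, which left out 31 members and 40 cycling barcodes with fewer, the Sox13 and Maf group held 8.33% of members and 0.150% of cycling barcodes. The corresponding shares were 3.26% and 0.235% for Trac, and 8.15% and 0.733% for the Notch-stage genes. Without thinning, the 3 limits took 1.39%, 6.09% and 19.3% of the much deeper cycling barcodes. The limits were not scaled to 3000 UMIs, so the size of the thinned differences is uncertain. At least 1 UMI of Trac was found in 11.8% of thinned members and 4.23% of thinned cycling barcodes.

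UMIs were summed over members and over cycling barcodes, and genes with a mean of at least 20 CPM in the 2 pools were counted, without mitochondrial genes, genes of the ribosomal subunits and the 4 rule genes. Of 4883 genes, 300 (6.14%) were at least 2-fold higher in members and 210 (4.30%) at least 2-fold lower, and the median log2 ratio was -0.03. Because the members were chosen on this contrast, these values describe the choice and support nothing else. A gene low in cycling barcodes passed the limit of 20 CPM only through members and so had to be higher in them, which holds for counts and medians of every list of such genes. Scaling by TMM, which shifted the median of all genes by -0.469 on the log2 scale, gave 127 higher and 772 lower, and totals without mitochondrial and ribosomal subunit genes gave 558 and 223. The number of higher genes was 255 (5.29% of 4820) without the T-poor group and 175 (3.69% of 4741) in the last 2 groups alone, and 155 (3.11% of 4981) against cycling barcodes of the members' own depth range. For lower genes these counts were 209 (4.34%), 184 (3.88%) and 156 (3.13%). Higher genes were fewer still in other settings, with 50 (1.02% of 4879) in the last 2 groups against the depth range, beside 142 lower (2.91%), and 22, beside 89 lower, when members were chosen after thinning to 3000 UMIs.

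The highest ratios belonged to few barcodes. Pth, which encodes parathyroid hormone, had 5265 UMIs in members, of which 5262 were in 1 barcode, and that barcode also held 981 UMIs of the neuroendocrine gene Chga. Their log2 ratios, 11.92 and 10.58, thus describe a member with 9 or fewer T cell marker UMIs and not the set. The next 10 genes were Nupr1 at 8.34, Col3a1 at 6.79, Sparc at 6.71, Dcn at 6.66, Igfbp5 at 6.60, Wfdc18 at 6.56, Fcgbp at 6.22, Krt5 at 6.12, Krt17 at 6.00 and Ccl21a at 5.99. Collagen, decorin and Sparc are matrix products, the keratins are epithelial, and Ccl21a is a chemokine of medullary thymic epithelium. In each of these 10 genes at least 98.3% of the members' UMIs lay in the 45 T-poor barcodes. Of all 300 higher genes, 37 had more than 50% of their UMIs there, and 3 had as much in 1 barcode.

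**Figure D2:**
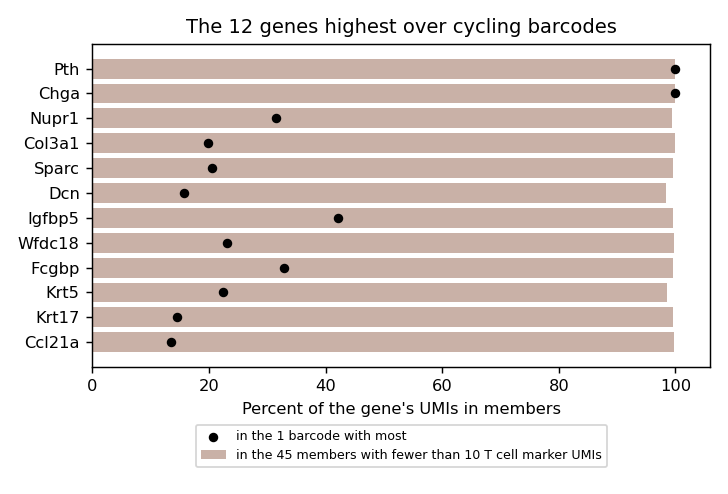
Percent of each gene's member UMIs (x axis) that lay in the 45 T-poor members (bars) and in the 1 member with the most (points), for the 12 genes with the highest ratios (y axis). Pth and Chga lie almost wholly in 1 barcode, and the other 10 genes lie at 98.3% or more in the T-poor group.

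The T-poor members carried markers of thymic epithelium and stroma. Krt5, Krt8 or Epcam reached 3 UMIs in 23 of the 45, Col1a1, Col1a2 or Pdgfra in 10, and both sets in 1. A further 3 had Cd74, the invariant chain of MHC class II, without either set, and 10 had none of these. Ccl21a reached 3 UMIs in 19, and Foxn1, the epithelial master regulator, in 2. Markers of blood cells were mixed in them. Lyz2, Csf1r, Siglech and Ncr1 had 0 UMIs, but the 8 myeloid markers summed to 1841 CPM, against 118 in the last 2 groups and 96.2 in cycling barcodes, and reached 3 UMIs in 24 of the 45. One barcode held 277 of the 458 myeloid UMIs, and the sum without it was 735 CPM. Cst3, also expressed outside myeloid cells, reached 3 UMIs in 23 of the 45, and Tyrobp had its 16 UMIs in 1 barcode. The 6 plasmacytoid markers summed to 748 CPM against 262 in cycling barcodes, and the 7 NK markers to 125 against 825. In cycling barcodes, 18 of 10682 (0.169%) were T-poor by the same limit. At 3000 UMIs each, the limit took 10.9% of members and 21.0% of cycling barcodes. It was not scaled to that depth and so took other barcodes too, and these 2 shares give no order. After thinning, Krt5 was detected in 2.90% of members (1.67 to 4.66) and 0.1785% of cycling barcodes (0.1075 to 0.2787). Cd74 was detected in 5.07% and 0.893%, and in 98.7% of B-like barcodes. A droplet with RNA of several cells would also be counted as 1 barcode, and no doublet caller was run.

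Genes of DNA replication and mitosis were lower in members, as the rule had fixed, and 4.30% of all genes were at least 2-fold lower and 6.14% higher. All 33 counted replication genes had a negative ratio and 22 were at least 2-fold lower, with a median of -1.30, and 35 of 36 counted mitosis and spindle genes were at least 2-fold lower, with a median of -2.08. For Cdk1, the kinase that drives entry into mitosis, CPM were 32.7 in members and 195 in cycling barcodes, a log2 ratio of -2.58 (95% interval, -2.83 to -2.34), and a B-like value of 66.1. The helicase subunit gene Mcm5 had 70.2 and 184 CPM, a ratio of -1.39 (-1.56 to -1.23). Against cycling barcodes in the members' depth range the medians were -1.23 for replication, with 28 genes lower, and -1.53 for mitosis. Replication-dependent histones, whose RNA is made in S phase, had 9 of 13 genes lower (median -1.71), and the G1 cyclin, kinase and E2F list 3 of 15 lower and 1 higher (-0.76). The lowest genes overall included Ckap2l, Esco2, Knl1, Spc25, Sgo2a, Rad51ap1, Kif2c, Aurkb, Pbk, Mxd3 and E2f8, from -3.07 to -2.61. Most of them serve kinetochores, sister chromatid cohesion or the spindle. Their CPM in members stayed near the level of sparse counts, for example 24 UMIs of Ckap2l over 583 barcodes.

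The promoters of the replication and mitosis genes differed in 2 short motifs. The cell-cycle genes homology region, searched as TTTGAA on both strands, is a site of the DREAM and MuvB complexes, and the E2F motif was searched as TTTGGCGC or TTTCCCGC on both strands. In RefSeq windows of 300 bases (GRCm38.p6, 250 before to 50 after each start), 23 of 34 matched mitosis genes (67.6%) held TTTGAA, compared with 20.2% of 27025 genes with a window and 4 of 28 matched replication genes (14.3%). The E2F letters occurred in 9 of 28 replication genes (32.1%), 2 of 34 mitosis genes (5.88%) and 1.80% of all genes. Among the 3966 counted genes with a window the shares were 14.8% for TTTGAA and 4.79% for the E2F letters, so the mitosis list lay near that background for E2F. A match is a description of letters and not a bound site. The stretches up to the RefSeq start of 2 mitosis genes and 1 replication gene are shown because they had the lowest ratios in the last 2 groups of members among genes of their list with the motif in that stretch. Capitals mark the motif on either strand. They cover chr10:69352913-69353062 (minus strand) for Cdk1, chr19:37376232-37376381 (plus) for Kif11, a spindle motor gene, and chr8:75109359-75109508 (plus) for Mcm5.
Cdk1: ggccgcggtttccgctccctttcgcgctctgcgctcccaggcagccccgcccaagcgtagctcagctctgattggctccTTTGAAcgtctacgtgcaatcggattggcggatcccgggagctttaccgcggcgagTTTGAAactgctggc
Kif11: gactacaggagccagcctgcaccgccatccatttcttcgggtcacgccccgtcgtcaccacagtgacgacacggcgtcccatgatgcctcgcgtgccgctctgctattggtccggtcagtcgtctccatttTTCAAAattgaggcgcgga
Mcm5: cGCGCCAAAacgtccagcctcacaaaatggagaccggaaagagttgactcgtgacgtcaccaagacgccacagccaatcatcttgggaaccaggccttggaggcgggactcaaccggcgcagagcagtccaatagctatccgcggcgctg
The 2 motifs of Cdk1 began 71 and 15 bases before the start and the motif of Kif11 19 bases before it. The E2F letters began 149 bases before the start in Mcm5. In the annotation used for the gene positions, Cdk1 starts at 69352938, upstream of the motif nearest to its RefSeq start, and Kif11 and Mcm5 start further downstream, at 37376403 and 75109569. Log2 ratios in the last 2 groups of members were -2.63 for Cdk1 and for Kif11 and -1.30 for Mcm5.

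Genes known from cell-cycle exit and quiescence summed to 2075 CPM in members and 910 in cycling barcodes over the whole list of 28. Of 20 counted, some only through members, 11 were at least 2-fold higher and 0 lower, with a median of 1.29, beside 6.14% of all genes. Ypel3, a p53-responsive gene linked to growth arrest, had 91.5 CPM in members and 9.98 in cycling barcodes, a log2 ratio of 3.20 (3.04 to 3.35). Mxd4, which encodes a MAX partner that opposes MYC, had 138 and 23.3 CPM (2.56, 2.44 to 2.69). Its per-barcode counts ran from 0 to 9 with a median of 1 in members, and from 0 to 9 with a median of 0 in the much deeper cycling barcodes. The antiproliferative gene Btg1 had 269 and 49.7 CPM (2.44, 2.35 to 2.52), and Pik3ip1, an inhibitor of PI3K, 75.8 and 18.1 (2.06, 1.90 to 2.23). Klf2, a factor of quiescent T cells ready to leave the thymus, had 67.1 and 11.5 CPM (2.54, 2.36 to 2.72). Its level was 19.2 CPM in the Notch-stage group. After thinning to 3000 UMIs, Klf2 was detected in 12.7% of members, 7.30% of the last 2 groups, 3.355% of cycling and 70.7% of B-like barcodes.

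The median of the quiescence genes stayed positive against cycling barcodes in the members' depth range and in the 2 largest groups. Against cycling barcodes in the depth range 7 of 21 were at least 2-fold higher, beside 3.11% of all genes, and the median was 0.70, and the ratios were 1.73 for Ypel3, 1.36 for Mxd4 and 1.52 for Btg1. In the last 2 groups the median was 1.24, with 10 of 17 higher, beside 3.69% of all genes. Genes such as Ypel3, at 9.98 CPM in cycling barcodes, were counted only through members, so their direction was fixed. After thinning to 3000 UMIs, Mxd4 was detected in 33.3% of 552 members, 6.90% of 10642 cycling and 12% of 75 B-like barcodes, whose median depths before thinning were 6523, 20153.5 and 3332 UMIs. Ypel3 was detected in 23.9%, 3.39% and 28.0%, and Btg1 in 48.2%, 14.2% and 88.0%. B-like barcodes had 140 CPM of Ypel3 and 963 of Btg1, above the members, so these shares are no measure of free RNA. Cyclin-dependent kinase inhibitor genes did not move as a block: Cdkn1a, below the limit on the mean of the pools, had a ratio of 2.21 at 21.8 CPM, Cdkn1b 0.97, Cdkn2d -0.05 and Cdkn2c -0.76. The D-type cyclin gene Ccnd2 was higher in members at 137 against 52.1 CPM (1.40, 1.27 to 1.52), and Ccnd3 had a ratio of -0.50.

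**Figure D3:**
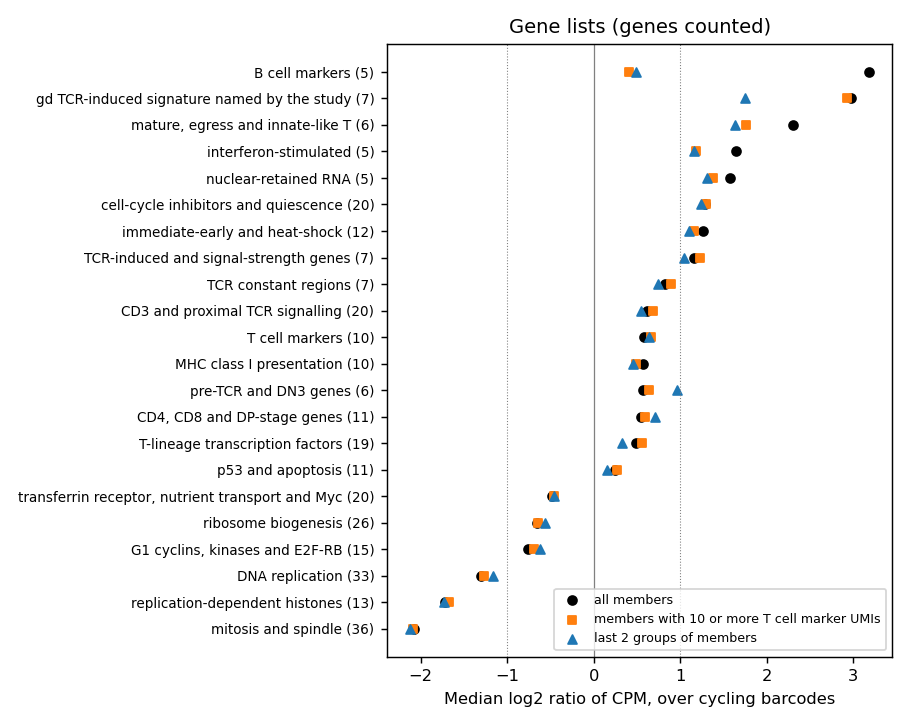
Median log2 ratio of members over cycling barcodes (x axis) for each gene list (y axis), for all members (circles), members with at least 10 T cell marker UMIs (squares) and the last 2 groups (triangles), with the number of genes counted in parentheses and dotted lines at 2-fold; genes low in cycling barcodes were counted only through members. Mitosis lies lowest at -2.08 in all members, and the B cell list goes from 3.19 to 0.40 once the T-poor group is left out.

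Growth genes had smaller ratios than cell-cycle genes. Among 26 counted genes of ribosome biogenesis all had negative ratios, yet 1 was at least 2-fold lower, near the 4.30% of all genes. Their median was -0.65, and -0.44 against cycling barcodes in the members' depth range. Ncl, which encodes nucleolin, had 1095 and 2141 CPM (-0.97, -1.01 to -0.92), and Nolc1, a nucleolar chaperone, had a ratio of -1.15. The list of nutrient transport and Myc genes had a median of -0.49, with 3 of 20 lower. Tfrc, which encodes the CD71 protein used in the sort, had 43.6 and 70.0 CPM (-0.68, -0.90 to -0.47). Myc had 69.9 and 71.4 CPM, a ratio of -0.03 (-0.20 to 0.14).

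The Sox13 and Maf group also stood high in TCR delta, gamma and beta constant genes, none of which counted toward its Sox13 and Maf limit. Sox13 lies on chromosome 1 at 133382303 to 133424377 and Maf on chromosome 8 at 115682942 to 115707794. Trdc, the TCR delta constant gene on chromosome 14 at 54142851 to 54148868, had 1069 CPM in these 72 members, with a UMI in 68, a median of 5.5 and a highest value of 18 UMIs. In the 97 Notch-stage members Trdc had 253 CPM, in the last 331 it had 359, and in cycling barcodes 217. The TCR gamma constant genes Tcrg-C1, Tcrg-C2 and Tcrg-C4 stood at 388, 440 and 400 CPM, against 67.1, 141 and 54.1 in cycling barcodes. These constant genes share near-identical stretches, so the split between them is uncertain. Of the beta constant gene Trbc2, the median was 22 UMIs in this group and 17 in the last group, at median depths of 5439.5 and 7084 UMIs. All 7 TCR constant genes summed to 9381 CPM here, 5645 in the last group and 4440 in cycling barcodes. The rise was thus not confined to delta and gamma.

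Further genes were high in the same group, some through very few barcodes. Among its highest ratios to the other members, Bcl2a1b came from 3 barcodes, and the MHC class II genes H2-Aa from 2 and H2-Eb1 from 1. All 85 UMIs of Cd74 in this group lay in 1 barcode. The gut-homing receptor gene Ccr9 had 1121 CPM, granzyme A gene Gzma 5534, Gata3 455, the kinase gene Blk 121, Etv5 176 and the scavenger receptor gene Cd163l1 107. In cycling barcodes these values were 28.3, 819, 83.5, 4.32 and 3.54 CPM for the first 5. Rag1 had 42.8 CPM, Ptcra 19 and Cd8b1 66.6, but the lists of these stages were not low as a whole. The pre-TCR and DN3 list summed to 1069 CPM in this group and 980 in cycling barcodes, and the CD4, CD8 and double-positive stage list to 3204 and 1424. The 14 genes that the study's text names from its gamma-delta TCR-induced signature, which was chosen on libraries of this series and is no independent evidence, summed to 611 CPM in members, 321 in the last 2 groups and 114 in cycling barcodes. All 7 counted (median 2.97) passed only through members, so their direction was fixed, and Sox13 set a group. The sort had removed cells with surface TCR delta, and transcript counts do not show what the cells displayed.

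The 38 Trac members carried a different set. Trac lies on chromosome 14 at 54220521 to 54224206, and its counts in this group ran from 2 to 10 UMIs with a median of 3. Ikzf2, which encodes Helios, had 1529 CPM, compared with 395 in the Sox13 and Maf group, 256 in the last group and 110 in cycling barcodes. Nrgn, which encodes a calmodulin-binding protein, had 1011 CPM from 21 of the 38 barcodes and 3.76 in cycling barcodes. The 22 TCR-induced genes summed to 2257 CPM, against 1409 in the Sox13 and Maf group and 362 in cycling barcodes. Nr4a1 had 107 CPM, Cd5 87.6, the co-stimulatory receptor gene Tnfrsf9 139 from 11 barcodes and Pdcd1 227, against 59.5, 19.04, 2.38 and 64.3 in the Sox13 and Maf group. Cd69, an early activation gene, was lower than in that group, at 79.6 against 157 CPM, with a UMI in 12 of 38 and 33 of 72 barcodes. The survival gene Bcl2 had 370 CPM, the IL-2 receptor beta chain gene Il2rb 215, Klf2 255 and Btg1 776. Recombination-stage genes were near their lowest here, with 11.9 CPM of Rag1, 147 of Dntt and 4.0 of Ptcra, and Trdc had 183 CPM.

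The 97 Notch-stage members also stood high in recombination and pre-TCR genes, which had not set the group. Rag1, a subunit of the V(D)J recombinase, had 357 CPM and a UMI in 81 of 97, and Ptcra had 175 CPM and a UMI in 58. Dntt, the terminal transferase of V(D)J joining, had 1285 CPM, Notch1 271, and the myosin light chain gene Myl10 570, against 690, 116 and 78.4 in cycling barcodes. Gm4632, annotated as an antisense transcript on chromosome 14 at 79178894 to 79199190, had 430 CPM in this group, 129 in the last group and 9.38 in cycling barcodes. Il2ra, the CD25 gene, had 112 CPM, but it helped to set the group, as did Hes1, which B-like barcodes also carried at 76.7 CPM. Cd8b1 stood at 56.1 CPM. Among this group's highest ratios to the other members were 2 heat-shock genes, Hspa1a at 112 against 34.6 CPM and Hspa1b at 37.0 against 11.1. They came from 17 and 16 barcodes. The median mitochondrial share was 4.79% in this group and 4.2% in the last group.

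The last and largest group held the highest Cd8b1 level of the 5. Cd8b1, the CD8 beta chain gene on chromosome 6 at 71322788 to 71337494, had 171 CPM here. A UMI was found in 154 of 331 members, with a highest value of 16 UMIs. The much deeper cycling barcodes had 97.6 CPM and a UMI in 6955 of 10682. Over all members, however, the Cd8b1 ratio to cycling barcodes in the members' depth range was negative, as given below. After thinning to 3000 UMIs, a UMI was found in 27.25% of the last 2 groups and 23.67% of cycling barcodes. No order between this group and cycling barcodes could therefore be read for Cd8b1. Rag1 stood at 217 CPM with a UMI in 185, Ptcra at 104 and Dntt at 1008. Replication and growth genes were higher here than in the Sox13 and Maf group, with 254 against 131 CPM of Pcna, 132 against 30.9 of Mcm3 and 1191 against 671 of Ncl. In this group, Cdk1 had 29.6 CPM, close to the 32.7 over all members. Klf2 stood at 42.8 CPM, Btg1 at 202 and Mxd4 at 141.

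**Figure D4:**
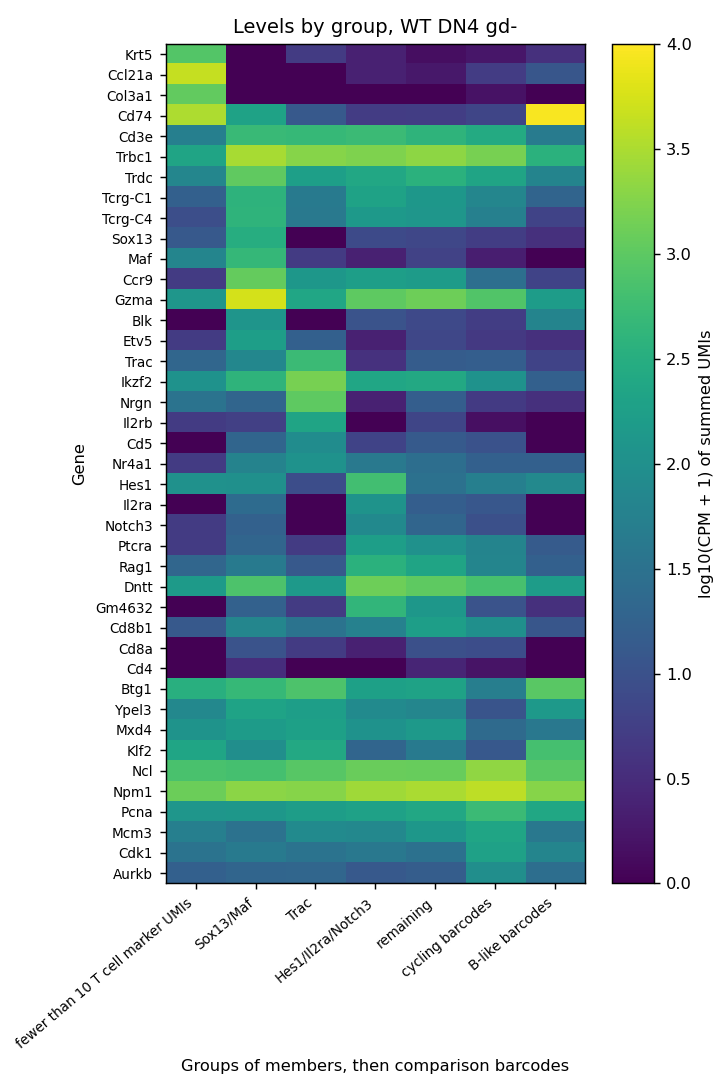
Colour gives log10 of CPM plus 1, from UMIs summed over the barcodes of each column, for selected genes (y axis) in the 5 groups of members and in the cycling and B-like barcodes of WT DN4 gd- (x axis). Trdc and Ccr9 peak in the Sox13 and Maf group, Rag1 and Ptcra in the Notch-stage group, and Cd8b1 in the last group.

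Over all members, where 6.14% of all genes were at least 2-fold higher, the TCR and stage lists had positive medians. TCR constant regions had 3 of 7 genes at least 2-fold higher (median 0.82), the CD3 and proximal signalling list 5 of 20 (0.61), and the CD4, CD8 and double-positive stage list 2 of 11 (0.55). Against cycling barcodes in the members' depth range these medians were 0.75, 0.43 and 0.25. The pre-TCR and DN3 list had 2 of 6 higher (0.57), and its median was 0.96 in the last 2 groups. Over alternative settings the lowest medians of these lists, in the order named, were 0.3, 0.02, 0.09 and 0.04. TMM scaling alone shifted the median of all genes by -0.469. TCR-induced genes had 4 of 7 counted of 22 higher (1.16). The 26 mature, egress and innate-like genes summed to 698 CPM in members, 529 in the last 2 groups and 183 in cycling barcodes, and of the 6 counted (median 2.30) 3 passed only through members. T cell markers, which sort members into the T-poor group, had 1 of 10 higher (0.59), near the share of all genes. Their median was as low as 0.12 in an alternative setting. T-lineage transcription factors had 3 of 19 higher, with a median of 0.48 that was -0.02 under TMM scaling. Trac had a ratio of 1.70 (1.49 to 1.91) over all members and of -0.40 in the last 2 groups. Those groups leave out members with at least 2 Trac UMIs and cycling barcodes do not, so the second value follows from the choice. For Cd8b1, CPM were 123 in members and 97.6 in cycling barcodes, and the ratio to those in the depth range was -0.74. After thinning, a UMI was found in 22.1% of members, 23.7% of cycling and 5.33% of B-like barcodes, so no order could be read. Cd4 was detected in 5 members and Cd8a in 24.

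Shares after thinning differed between the recombination genes. Rag1 was detected in 33.3% of members, 16.9% of cycling and 5.33% of B-like barcodes, and Trdc in 52.2%, 42.0% and 14.7%. Dntt was detected in 82.4%, 85.3% and 41.3%, so by this share members as a whole did not exceed cycling barcodes, and the background was large. In the last 2 groups its share was 91.2%, and its CPM given above for each of them exceeded those in cycling barcodes. Rag2 was detected in 7.79%, 4.84% and 1.33%. For Ptcra the shares were 22.3%, 16.5% and 5.33%. Il2ra was detected in 7.25%, 3.31% and 0 of 75, which allows a share of up to 4% with a UMI by the limit of 3 counts and 4.8% by the exact interval. Hes1 was detected in 23.4% of members, 12.6% of cycling and 22.7% of B-like barcodes, so its share was at the B-like level. Its CPM were 142, 52.0 and 76.7 in members, cycling and B-like barcodes.

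With the T-poor group left out, the 12 highest genes were Maf at 5.49, Cd53 at 4.70, Nrgn at 4.33, Gm4632 at 4.13, Cd52 at 3.66, Nkg7 at 3.23, Ms4a4b and Ypel3 at 3.22, Ccr9 at 3.19, Sox13 at 3.16, and Tes and Ltb at 2.92. In the last 2 groups they were Gm4632 at 4.38, Nkg7 at 2.91, Ypel3 at 2.84, Ms4a4b at 2.75, Cd52 at 2.74, Mxd4 at 2.52, Ccr9 at 2.49, Gbp6 at 2.43, Ltb at 2.32, Sytl1 at 2.21, Zbtb20 at 2.19 and Pik3ip1 at 2.16. Cd52 and Cd53 encode leukocyte surface proteins, Nkg7 a protein of cytotoxic granules and Ltb lymphotoxin beta. B-like barcodes had 2790 CPM of Cd52 and 727 of Ltb, above the members' 185 and 109, and the part of free B cell RNA in these values was not tested. Nkg7 had 0 UMIs in B-like barcodes.

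Lists that mark stress or other cells had positive medians where any gene was counted, and are set beside shares of all genes at least 2-fold higher of 6.14% in all members, 5.29% without the T-poor group and 3.69% in the last 2 groups. Immediate-early and heat-shock genes had 9 of 12 at least 2-fold higher and 1 lower (median 1.26), yet summed to 4923 CPM in members and 6478 in cycling barcodes, with Jun at 213 against 44.1 CPM and Junb at 423 against 120. Interferon-stimulated genes had 4 of 5 higher (1.64), but 3 of 4 (1.18) without the T-poor group, itself at 7857 CPM of the list, and 2 of 4 (1.15) in the last 2 groups. The list summed to 999 CPM in members, 569 without the T-poor group and 279 in cycling barcodes. Of 10 MHC class I genes, 4 were higher (0.57), and 1 of 10 among members with T cell markers. Nuclear-retained RNA had 3 of 5 higher (1.58), but a median of 0.29 against cycling barcodes in the members' depth range. In these the list summed to 8513 CPM, against 5314 in all cycling barcodes and 16439 in members. Malat1 had 12467 CPM in members, 3551 in cycling and 20883 in B-like barcodes. In the p53 and apoptosis list 2 of 11 were higher, and the median of 0.25 was -0.21 under TMM scaling. B cell markers had 3 of 5 higher (3.19), but a median of 0.40 over the 2 genes counted without the T-poor group. Cd74 had 798 of its 900 UMIs in T-poor members. The 9 epithelial and stromal markers summed to 291.5 CPM in members, 101.5 without the T-poor group and 42.1 in cycling barcodes, and all 4 counted (median 3.93) passed only through members. Without the T-poor group the 2 counted were Epcam and Pecam1 (1.33). The NK list had 1 of 2 higher, the plasmacytoid list 1 of 3 and the myeloid list 0 of 1, whereas 0 genes of the erythroid or the mast, basophil and innate lymphoid lists reached the limit of 20 CPM.

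The same rule selected very different shares of the other libraries. It took 4.33% of kept barcodes (778) in WT DN3b gd- and 6.47% (754) in WT DN3b gd+, but 89.0% (5572) in WT DN3a and 75.2% (5532) in WT DN4 gd+. In Lat-/- DN3 gd- and Lat-/- DN3 gdint the shares were 86.0% and 64.1%. Their median depths were 7709.5, 8134, 7188 and 6287 UMIs in the WT DN3b gd-, WT DN3b gd+, WT DN3a and WT DN4 gd+ members. Sort and library cannot be told apart.

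The members' makeup differed between libraries side by side. The Sox13 and Maf limit was met by 12.3% of members in WT DN4 gd-, 0.771% in WT DN3b gd-, 2.67% in WT DN3a, 26.0% in WT DN3b gd+ and 60.5% in WT DN4 gd+. The Notch-stage limit took 16.6%, 49.0%, 88.9%, 15.9% and 0.416% in the same order, and the Trac limit 6.52%, 0.129%, 0.0718%, 5.17% and 7.10%. Members with fewer than 10 T cell marker UMIs numbered 45 (7.72%) in WT DN4 gd- and 14 (1.80%), 3 (0.0538%), 10 (1.33%) and 7 (0.1265%) in the others. Trdc in members ran from 269 CPM in WT DN3b gd- through 308 in WT DN3a, 384 in WT DN4 gd- and 1409 in WT DN3b gd+ to 2225 in WT DN4 gd+. Over all members Cd8b1 had 123 CPM in WT DN4 gd- and 13.03 in WT DN3b gd-, and 1.25 to 9.09 in the other 3.

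**Figure D5:**
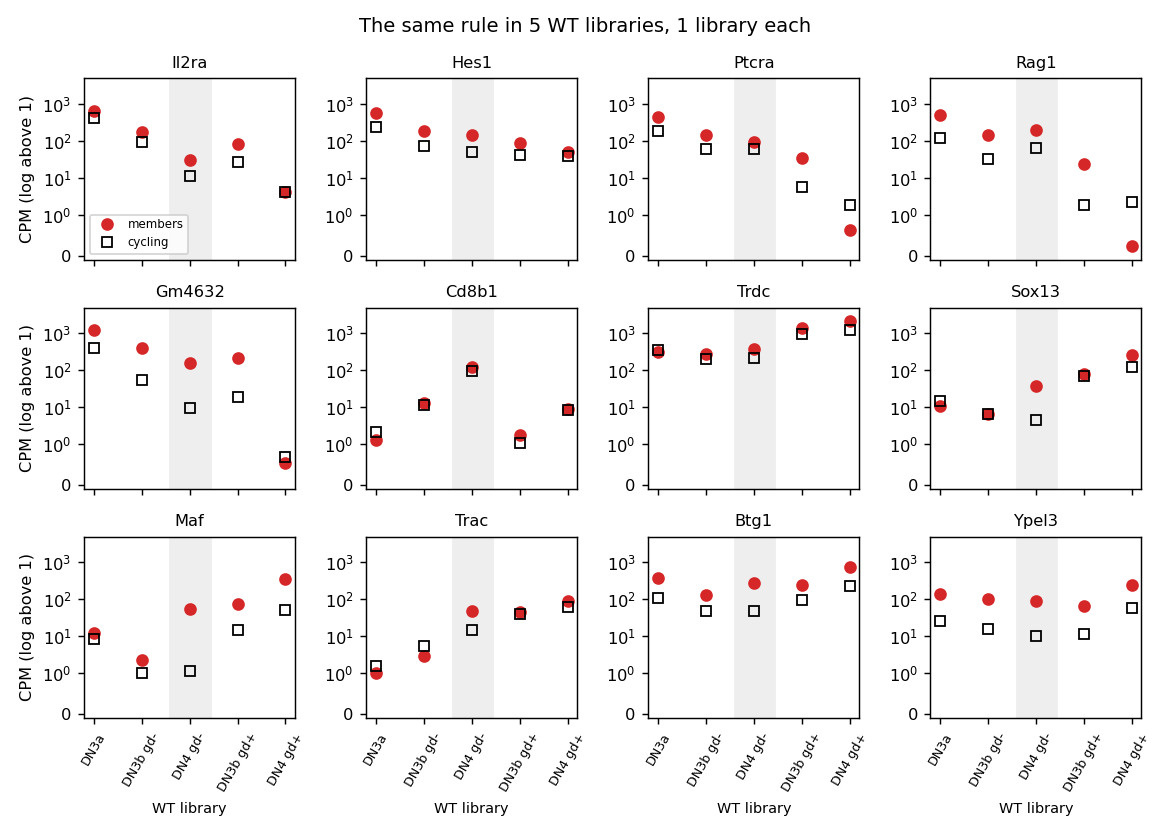
CPM (y axes, log scale above 1 and linear below) of 12 genes in the members (circles) and cycling barcodes (squares) of each WT library (x axes), with WT DN4 gd- shaded and 1 library per sort. Cd8b1 stands highest in WT DN4 gd-, Il2ra in WT DN3a, and Trdc, Sox13 and Maf in WT DN4 gd+.

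Within each library, members and cycling barcodes differed in part by the same genes. Log2 ratios of Ypel3 were 3.20 in WT DN4 gd- and 2.70, 2.40, 2.51 and 2.05 in WT DN3b gd-, WT DN3a, WT DN3b gd+ and WT DN4 gd+, and those of Mxd4 were 2.56 and 2.48, 2.41, 2.17 and 1.85. Klf2 had 2.54 in WT DN4 gd- and 0.06 to 0.70 in the others. Maf had 5.51 in WT DN4 gd- and 1.15, 0.51, 2.32 and 2.87 in the others, and Sox13 3.10 against 0.00, -0.48, 0.15 and 1.01. In WT DN4 gd- and WT DN3b gd- together, 4671 genes were counted in both libraries. Of these, 233 were at least 2-fold higher in WT DN4 gd- members and 111 in WT DN3b gd- members, with 96 shared, or 41.2% and 86.5% of the lists. Of 202 and 154 lower genes, 139 were shared, or 68.8% and 90.3%. Over all its counted genes, WT DN4 gd- had 6.14% higher and 4.30% lower, and WT DN3b gd- had 141 and 167 of 5060. The same rule chose low counts of cell-cycle genes and shallower barcodes in both libraries. Shared lower cell-cycle genes were thus fixed in advance, and the overlaps are a description only.

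Set directly against each other, WT DN4 gd- members had 105 of 5083 genes (2.07%) at least 2-fold higher and 42 (0.826%) lower than WT DN3b gd- members. The 6 highest were Ccl21a at 6.43, Nrgn at 4.81, Krt17 at 4.67, Maf at 4.55, Krt18 at 4.31 and Trac at 4.04, genes of the T-poor, Sox13 and Maf, and Trac groups. Il2ra was lowest at -2.55 (30.6 against 179 CPM), then Pld4 at -2.32, Mpzl2 at -2.09, Mcub at -1.84, Mzb1 at -1.65 and Il7r at -1.57. Restricted to the last 2 groups of each library, 28 of 4967 genes (0.564%) were higher and 43 (0.866%) lower. Cd8b1 was at 146 against 12.9 CPM (3.50, 3.15 to 3.86), while in cycling barcodes it was at 97.6 against 11.6. Hist1h2ap had the highest ratio at 3.64, and it also differed between the cycling barcodes of the libraries, at 1053 against 99.0 CPM. AY036118 at 2.89, Gstp1 at 2.46, Gm10076 at 2.43 and Rmnd5a at 1.61 followed. The lowest were Mpzl2 at -2.37, Il2ra at -2.32, Pld4 at -2.01, Bcl2 at -1.81, Ifitm2 at -1.72 and Mcub at -1.64.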

How the data were processed

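Single-cell RNA was measured by 10x 3' v3 in 7 libraries, 1 per sorted group. The authors aligned reads to mm10 with the Trdc-H2BEGFP allele added and deposited UMI counts per gene and barcode, 32286 features per library. The labels give Cell Ranger 5.0.1, the file headers 4.0.0. The submitters' notes also name R 3.6.3 and Seurat 3.1.5, and the matrices used here hold whole-number counts from before that step. Features that share a symbol were summed, which gave 32246 symbols. The paper added the counts of the reporter allele to those of Trdc, whereas Trdc here is the feature of that symbol alone. No column of other samples was present.

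Groups were taken from the labels. The members, the 28 gene lists and their groups were chosen with earlier results of these data known. UMIs were summed per set and scaled to CPM of the set. Ratios are log2 of CPM, with exact conditional binomial 95% intervals, and a count of 0 entered as 3. Exact Clopper-Pearson intervals were used for shares. With 1 library per group no p-value was computed. UMIs remove PCR copies, and intervals and limits for a count of 0 cover counting error only. Named genes were list genes with high CPM or large ratios, the 12 highest and 12 lowest by ratio among genes with at least 20 CPM on average and at least 10 UMIs in each pool, repeated for members with T cell markers and for the last 2 groups, and the 6 highest and 6 lowest against WT DN3b gd- members. Other genes named in the groups of members (such as Pdcd1, Bcl2 and Il2rb) were chosen after their values were seen. A few genes that the rule names are not reported here. Comparisons in the members' depth range used cycling barcodes between the 10th and 90th percentile of the members' UMIs, and thinning drew 3000 UMIs per barcode. That range ran from 3477.4 to 12254.6 UMIs, below the 10th percentile of cycling barcodes, 13020.1. Depth within the range was not equalized. No doublet caller was run, and leaving out the 5% of members with the most UMIs was an alternative. Other alternatives changed the rule, the quality limits, the scaling (TMM), the CPM limit and the thinning depth. TMM factors came from edgeR 4.0.16 in R 4.3.3, intervals from scipy 1.17.1, and the remaining sums from pandas 2.3.3 under Python 3.11.15. Scripts were tested on simulated data with known ratios. Promoter sequences came from RefSeq (GRCm38.p6), and gene positions from an mm10 annotation.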

Additional observations from a re-analysis of the deposited data

Results flagged for a closer look

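Nrgn had opposite directions in the DN4 libraries, each by more than 2-fold. Its log2 ratio of members over cycling barcodes was 4.28 in WT DN4 gd- (73.0 against 3.76 CPM) and -1.71 in WT DN4 gd+ (138 against 454 CPM). In WT DN4 gd- the gene was found in 32 members, 21 of them in the Trac group. With 1 library per sort the difference was not tested.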

How the results depend on the processing

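Each group had 1 library, all values are descriptive, and no call could be lost or gained. The share of members, 4.86%, was 1.75% with 0 UMIs of the 4 genes, 8.54% with limits of 200 genes and 15% mitochondrial UMIs, 2.52% with 2000 genes and 5%, and 11.2% when chosen after thinning. The 300 higher and 210 lower genes became 22 and 89 when members were chosen after thinning, 127 and 772 under TMM, 1007 and 338 at a limit of 5 CPM and 45 and 60 at 100 CPM. Higher genes numbered 155 against cycling barcodes in the depth range, 558 with totals lacking mitochondrial and ribosomal subunit genes, and 189 without genes highest in B-like barcodes. Of 14 alternatives chosen earlier and 3 added after seeing the data, the added ones gave 175 higher genes in the last 2 groups and 50 when these were set against cycling barcodes in the depth range. Medians ranged from -2.60 to -1.41 for mitosis, -1.76 to -0.44 for replication and 0.36 to 1.5 for quiescence genes. In all, 23 of 26 list medians kept their sign, and those of T-lineage transcription factors and of p53 and apoptosis genes went to -0.02 and -0.21 under TMM.

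Signs of named genes turned mainly when barcodes were left out. For epithelial and matrix genes few UMIs then remained. T-poor members held 291 of 292 UMIs of Sparc, 570 of 571 of Wfdc18, 297 of 298 of Krt17 and 1125 of 1128 of Ccl21a. The sizes of their ratios below are therefore uncertain, and a count of 0 entered as 3. Cycling barcodes were not filtered in the same way and kept their 18 T-poor barcodes. Ccl21a reached 3 UMIs in 18 cycling barcodes and Krt17 in 15. Negative ratios of epithelial, matrix and MHC class II genes below cannot be told apart from this 1-sided choice. Without T-poor members, log2 ratios were -1.39 for Sparc, -1.11 for Igfbp5, -2.50 for Wfdc18, -1.38 for Fcgbp, -2.14 for Krt17, -2.48 for Ccl21a, -1.51 for Krt8, -0.60 for Col1a2 and -0.11 for Krt18. In the last 2 groups they were -1.12 for Sparc, -0.84 for Igfbp5, -2.24 for Wfdc18, -2.11 for Fcgbp, -0.28 for Krt5, -1.87 for Krt17, -2.21 for Ccl21a, -0.33 for Col1a2, -0.48 for Cd74, -0.68 for H2-Aa, -0.40 for Trac and -0.47 for Pdcd1. In these groups against the depth range, the B cell list had a median of -0.17, with -2.57 for Sparc, -1.61 for Dcn, -4.23 for Wfdc18, -3.63 for Fcgbp, -1.04 for Krt5 and Krt18, -3.33 for Krt17, -3.40 for Ccl21a, -1.54 for Krt8, -0.61 for Col1a1 and Pdcd1, -3.24 for Cd74, -3.56 for H2-Aa, -0.68 for Maf, -0.26 for Sox13, -0.30 for Nrgn, -0.84 for Trac and -0.25 for Tnfrsf9. The last 2 groups exclude members by their counts of Sox13, Maf and Trac, so low values of these genes follow from the choice. Causes of the other changes were not tested. No paired analysis was possible because each group has 1 library.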
